A study of Homo sapiens with 2 samples.

Results

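Structured noncoding RNAs of ribonucleoprotein machines were examined in the peak list of a SpyCLIP-seq experiment on PQBP1, the polyglutamine binding protein that acts in the spliceosome. In SpyCLIP-seq, UV light fixes a tagged protein to the RNA it touches, RNase trims what is exposed, and the fragments that stay on the protein through harsh washes are sequenced. HEY cells, an established human ovarian cancer line, overexpressed PQBP1 with FLAG and Spy tags, were irradiated at 400 mJ per cm2, and their nuclei were extracted before lysis. There was 1 library of the starting material (Input) and 1 library of the FLAG pull-down (IP), from the same cells. Both groups thus carried the tagged protein at raised levels, and RNA of the cytoplasm was depleted when nuclei were taken. The members were all peaks of the IP library whose transcript type was snRNA, RNase MRP RNA, RNase P RNA, SRP RNA or telomerase RNA. That gave 6 of 1489 peaks, 1 for each of RN7SK, RMRP, RPPH1, RN7SL1, RN7SL2 and TERC. Input values were not analysed here, so a read value below mixes how much of an RNA was present with how much of it was recovered on PQBP1, and these cannot be told apart.

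These RNAs are the cores of separate machines. RN7SK, the 7SK RNA, holds the kinase P-TEFb inactive with the help of HEXIM and LARP7 and so restrains transcription elongation. RMRP is the RNA of RNase MRP, which cleaves precursor ribosomal RNA in the nucleolus, and RPPH1 is the catalytic RNA of RNase P, which removes the leader of precursor tRNA. RN7SL1 and RN7SL2 encode the RNA of the signal recognition particle (SRP), which is assembled in part in the nucleolus and directs secretory proteins to the endoplasmic reticulum in the cytoplasm. How free the nuclei were of cytoplasm was not tested here. TERC carries the template that telomerase copies onto chromosome ends. RNA polymerase III makes all of them except TERC, which is made by RNA polymerase II.

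The sequences used are those of the GENCODE release 44 transcripts, whose gene positions refer to GRCh38, and positions within an RNA are counted from its first base. The near identity of the SRP RNAs governs how reads can be divided between them. RN7SL1 and RN7SL2 differed at 4 bases of 299 and by 1 further base at the end of RN7SL2. From position 70 to 274 the pair was identical over 205 nt. RN7SL1 lies at chr14:49586580-49586878 on the plus strand of GRCh38 and RN7SL2 at chr14:49862550-49862849 on the minus strand. RN7SL1 lies within the span of RPS29 on the opposite strand, and RPS29 itself had 0 peaks. On their own strand RPPH1 and RN7SL2 each overlap a GENCODE gene without a symbol. RN7SK and TERC overlap entries named 7SK and Telomerase-vert. Whether reads came from these overlapping genes was not tested.

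The RNAs of RNase MRP and RNase P share most of their protein subunits, and they are shown to compare their sequences. Capitals mark the longest run that they have in common, which was 9 nt.
RMRP, whole: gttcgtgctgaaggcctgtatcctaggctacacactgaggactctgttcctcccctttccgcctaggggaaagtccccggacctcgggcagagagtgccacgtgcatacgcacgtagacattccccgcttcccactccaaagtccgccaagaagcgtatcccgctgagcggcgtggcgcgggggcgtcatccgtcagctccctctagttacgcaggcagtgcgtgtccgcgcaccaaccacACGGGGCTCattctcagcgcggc
RPPH1, bases 1 to 200: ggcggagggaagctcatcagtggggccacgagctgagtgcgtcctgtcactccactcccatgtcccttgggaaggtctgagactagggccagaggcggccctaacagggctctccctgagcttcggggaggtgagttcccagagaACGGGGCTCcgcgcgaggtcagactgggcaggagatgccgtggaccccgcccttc
RMRP lies at chr9:35657754-35658017 and RPPH1 at chr14:20343075-20343407, both on the minus strand of GRCh38. Apart from the SRP RNAs, no pair of the 6 RNAs shared a run of more than 10 nt. RPPH1 shared 10 nt with TERC and with RN7SL2, and RMRP shared 9 nt with TERC. The run of 9 nt in capitals is thus no longer than runs shared with RNAs of other machines, and it does not mark a common element.

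The beginning of RN7SK and of TERC is shown for the elements that their best known functions use.
RN7SK, bases 1 to 200: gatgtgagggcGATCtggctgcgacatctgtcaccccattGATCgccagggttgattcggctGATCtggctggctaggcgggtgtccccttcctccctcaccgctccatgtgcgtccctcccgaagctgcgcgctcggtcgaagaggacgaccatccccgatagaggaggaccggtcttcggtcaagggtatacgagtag
TERC, bases 1 to 120: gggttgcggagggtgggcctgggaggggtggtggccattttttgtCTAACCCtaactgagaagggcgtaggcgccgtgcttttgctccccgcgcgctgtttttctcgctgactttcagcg
In RN7SK the capitals mark GATC, of which there were 3, starting at positions 12, 41 and 63. GAUC in the first hairpin of the RNA is known as the contact of HEXIM. In TERC the capitals mark CTAACCC at position 46, which belongs to the template of telomeric repeats. Each motif was searched on the strand of the RNA, and GATC reads the same on both strands. At least 3 GATC in the first 200 nt were found in 1.96% of 243982 GENCODE transcripts of that length or more. This limit of 3 was the count in RN7SK itself. Over the whole RNA, GATC occurred 3 times in RN7SK and 4 times in each of RN7SL1 and RN7SL2. The count is thus not particular to RN7SK. TERC had 1 GATC, and RMRP and RPPH1 had 0. Positions of GATC in the SRP RNAs are not given here. CTAACCC in the first 120 nt was found in 0.320% of 246812 transcripts. RN7SK lies at chr6:52995621-52995948 on the plus strand of GRCh38 and TERC at chr3:169764520-169765060 on the minus strand.

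RN7SK gave the highest peak of the whole list by reads per bin. Its peak, annotated to transcript NR_001445.2, was 1 bin of 200 nt on chromosome 6 from 52860401 to 52860600 and held 1138 reads (exact Poisson 95% interval 1073 to 1206). Peak positions are given as the deposited list has them, 1-based. They do not belong to GRCh38, since for 5 of the 6 RNAs the interval did not overlap the gene on GRCh38. The value was 103 times the median of all peaks, which was 11 reads per bin (quartiles 9 and 14). The next highest of the 1264 peaks of 1 bin, that of SCARNA7, a small Cajal body RNA, had 455 reads, and RN7SK exceeded it 2.50 times. RN7SK thus stood apart from every other peak of the same width.

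RMRP came next, with 673 reads per bin (637.5 to 709.9) over 2 bins on chromosome 9 from 35657601 to 35658000. RN7SK exceeded it 1.69 times on this scale (exact conditional binomial 95% interval 1.56 to 1.83). RPPH1 followed with 483.5 reads per bin (453.5 to 515.0) over 2 bins on chromosome 14 from 20811201 to 20811600. RMRP exceeded RPPH1 1.39 times (1.28 to 1.51). The related RNases therefore held the second and the third place of the list. They differed from each other by more than the counting error of independent reads.

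The SRP RNA genes took the fifth and the seventh place. For RN7SL1, on chromosome 14 from 50053201 to 50053600, the value was 358 reads per bin (332.3 to 385.2). For RN7SL2, on the same chromosome from 50329201 to 50329600, it was 231.5 (210.9 to 253.6). Each peak was 2 bins wide. RN7SL1 exceeded RN7SL2 1.55 times (1.37 to 1.74) and held 60.7% of the 1179 reads of the pair (Wilson 95% interval 57.9 to 63.5). This ratio and share are of reads as the deposited list counts them. A read that lies wholly within the identical 205 nt cannot be given to either gene by its sequence. As 1 RNA the pair would have 589.5 reads per bin, between RMRP and RPPH1, provided that no read was counted at both genes. The methods do not state this. RN7SL3, a further full-length copy with 97.7% identity to RN7SL1, had 0 peaks.

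TERC was far lower. It had 48.5 reads per bin (39.3 to 59.2) over 2 bins on chromosome 3 from 169482401 to 169482800, which put it at rank 27. RN7SK exceeded it 23.5 times (19.1 to 29.2), and RN7SL2, the next member above it, had an interval that lay entirely higher. TERC was still at 4.41 times the list median. Peaks of 16 other genes were higher than TERC, among them 7 peaks of mRNA type.

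**Figure D1:**
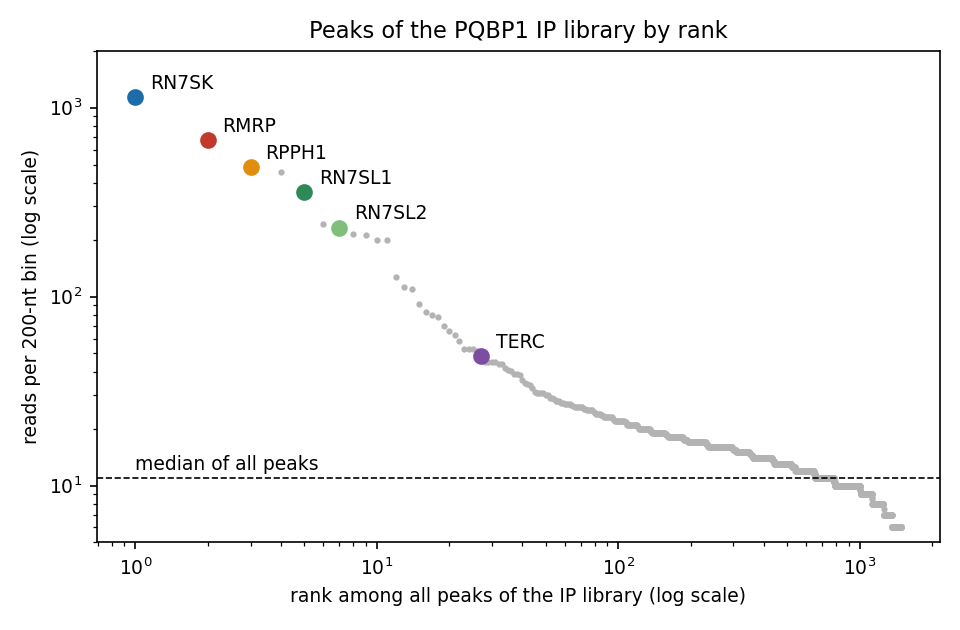
Reads per 200-nt bin of all 1489 peaks of the IP library against their rank, both on log axes, with the 6 structured RNAs in colour, other peaks in grey and the median of all peaks (11 reads per bin) as a dashed line. RN7SK, RMRP and RPPH1 occupy the first 3 places, RN7SL1 and RN7SL2 the fifth and seventh, and TERC rank 27 where the grey points lie densely.

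The order was then read against the nearest peaks. RPPH1 was not separated from SCARNA7 below it (455 reads per bin, ratio 1.06, 0.95 to 1.19). RN7SL1 was lower than SCARNA7 (ratio 0.787, 0.699 to 0.887) and higher than SCARNA2 (241.5 reads per bin, ratio 1.48, 1.32 to 1.67), another guide RNA of Cajal bodies. RN7SL2 lay between SCARNA2 (ratio 0.959, 0.842 to 1.09) and the small nucleolar RNA SNORA73B (214 reads per bin, ratio 1.08, 0.918 to 1.28), and its interval with either one included 1. TERC was in the same position between an exon peak of NCL, the nucleolin mRNA (51.3 reads per bin, ratio 0.945, 0.725 to 1.23), and a peak of the long noncoding RNA NEAT1 (45.3 reads per bin, ratio 1.07, 0.851 to 1.34). The first place of RN7SK and the second of RMRP were thus clear of counting error if each read is taken as an independent count. The third place of RPPH1 and those of RN7SL2 and TERC were not separated from a neighbour.

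As a set, 5 of the 6 members exceeded 200 reads per bin, a level that 0.604% of all peaks passed (9 of 1489). The other 4 peaks past this level were those of SCARNA7, SCARNA2, SNORA73B and the long noncoding RNA MALAT1. No mRNA peak was higher than 200 reads per bin, the value of HSP90AA1, and 5 members lay above it. The median over the 6 members was 420.75 reads per bin, against 11 over the 1338 mRNA peaks and 12 over the 145 noncoding peaks that were not members. These 145 peaks pool several classes, with 82 of type ncRNA, 45 of lnc_RNA, 9 of snoRNA and 9 of miRNA. A median of the small structured RNAs alone was not taken. All 6 members carried the smallest p-value of the list, 5.19e-12, as 4.16% of all peaks did (62 of 1489), and all were classed as exon, as were 62.5% of all peaks. The lowest of these 62 peaks had 17 reads per bin, so the p-value does not rank the members.

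In total the 6 peaks held 4727 of the 39952 reads in peaks, a share of 11.8% (Wilson 95% interval 11.5 to 12.2), on 11 of the 1959 bins (0.562%). RMRP contributed 1346 reads, RN7SK 1138, RPPH1 967, RN7SL1 716, RN7SL2 463 and TERC 97. By machine, RNase MRP and RNase P RNA together made up 48.9% of the reads of the set, SRP RNA 24.9%, 7SK RNA 24.1% and telomerase RNA 2.05%. The total and these shares assume that no read was counted at both SRP RNA genes, which was not tested.

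Reads per bin ranks a peak, but it is not a level per length of RNA, because a short RNA does not fill its bins. Peak widths and RNA lengths are compared here using the RefSeq gene lengths on GRCh38.p14. RMRP is 270 nt long and could fill at most 67.5% of its 400-nt peak, RPPH1 (341 nt) 85.2% and each SRP RNA (299 nt) 74.8%. RN7SK is 332 nt long, so at least 132 nt of it lay outside its single listed bin. TERC is 451 nt long, so at least 51 nt of it lay outside its peak. The GENCODE transcripts, used for the sequence features and the search for copies, differ in length. They have 264 nt for RMRP, 328 for RN7SK, 333 for RPPH1, 300 for RN7SL2 and 541 for TERC. For RN7SK and TERC the reads counted are therefore those of a part of the RNA. For RMRP, RPPH1 and the SRP RNAs, whether the peak held the whole RNA is not known.

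**Figure D2:**
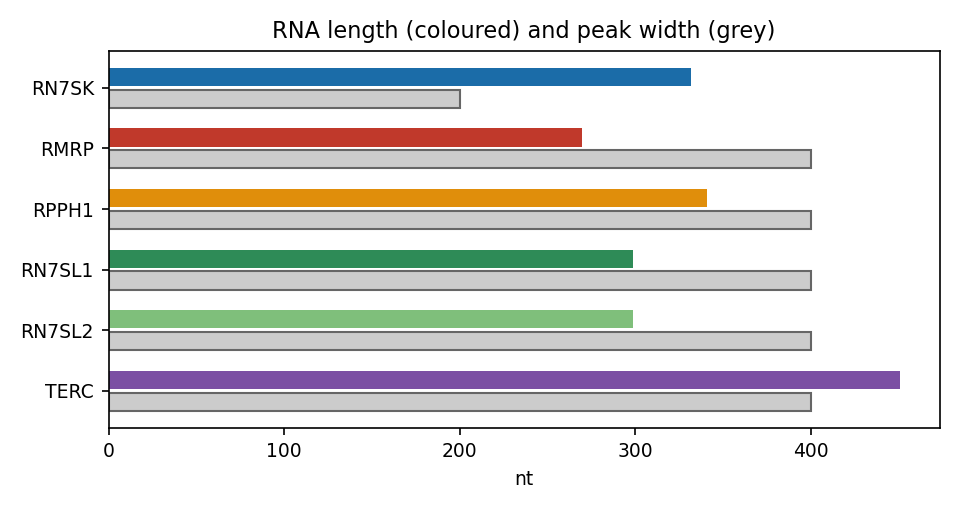
Annotated RNA length (coloured bars) and width of the listed peak (grey bars) in nt for the 6 RNAs. The peak of RN7SK (200 nt) is shorter than its RNA (332 nt), as is that of TERC (400 and 451 nt), while the other 4 peaks are 400 nt wide and longer than their RNAs.

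Per nt of RNA length, RMRP was the highest with 4.99 reads per nt (4.72 to 5.26). RN7SK had 3.43 (3.23 to 3.63), a ratio to RMRP of 0.688 (0.635 to 0.745). RPPH1 had 2.84 reads per nt (2.66 to 3.02), RN7SL1 2.39 (2.22 to 2.58), RN7SL2 1.55 (1.41 to 1.70) and TERC 0.215 (0.174 to 0.262). RMRP exceeded RPPH1 1.76 times on this scale (1.62 to 1.91). The only change in the order was therefore at the top, where RMRP and RN7SK changed places. When the reads were divided by the longest stretch of RNA that the peak could hold, RN7SK had at least 5.69 reads per nt (5.36 to 6.03) and again exceeded RMRP, by 1.14 times (1.05 to 1.24). These densities take the largest overlap that is possible, because where the bins lie in the RNA could not be read without an annotation of the build of the list. Each is therefore a lower bound, that of RMRP included. The ratio could be higher or lower, and its interval does not cover the unknown overlap. Which of RN7SK and RMRP was first thus depended on the scale. RPPH1, RN7SL1, RN7SL2 and TERC followed in this order on all 4 scales, the last of them taken at the largest overlap.

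**Figure D3:**
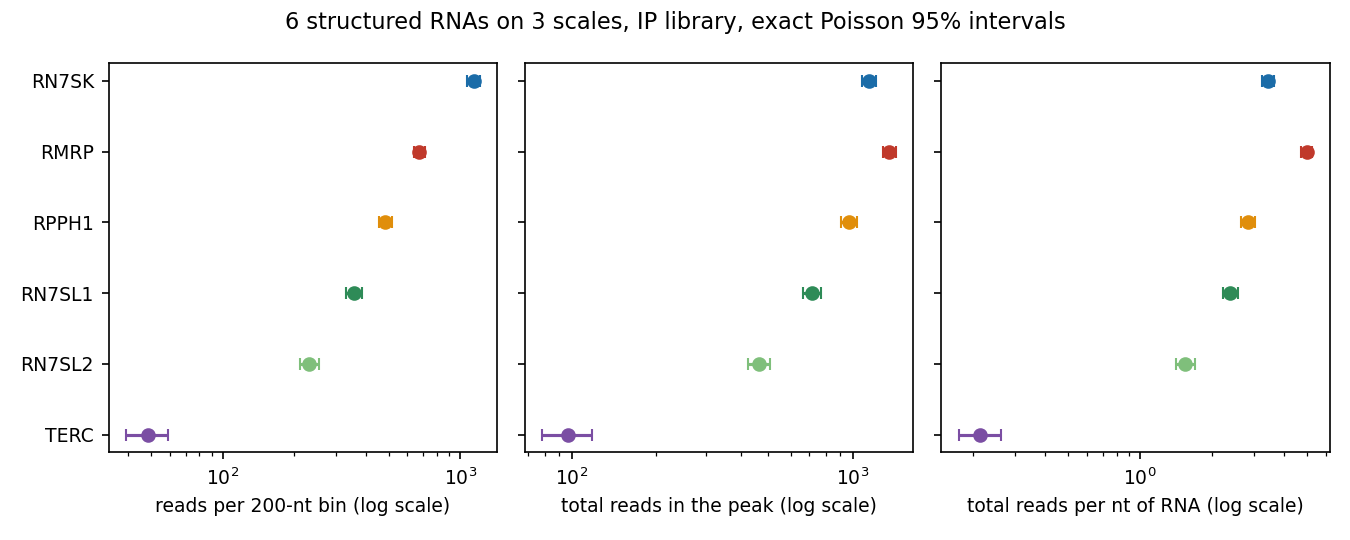
Reads per 200-nt bin, total reads in the peak and total reads per nt of annotated RNA length for the 6 RNAs, on log axes, with exact Poisson 95% intervals as bars. RN7SK leads on the first scale (1138) and RMRP on the others (1346 reads, 4.99 reads per nt), and TERC is the lowest on each.

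How securely these reads can be placed was examined by looking for exact copies. Each RNA was cut into all windows of 50 nt, and each window was searched on both strands of the 24 main chromosomes of GRCh38. Every window of RMRP (215), RPPH1 (284) and TERC (492) occurred at 1 place. In RN7SK 64 of 279 windows (22.9%) occurred at 1 place, and the median was 3 places. The single-place windows of RN7SK began at position 215 or later, so the 200 nt printed above lie in the part of the RNA that has exact copies elsewhere. In RN7SL1 39 of 250 windows (15.6%) and in RN7SL2 33 of 251 (13.1%) occurred at 1 place, with medians of 3.5 and 4 places. These windows were at the ends of the SRP RNA, and those from position 226 onward include a base at which the pair differs. With windows of 30 nt the share at 1 place was 9.36% in RN7SK, 4.06% in RN7SL2 and 0 of 270 windows in RN7SL1, where the most frequent window occurred at 43857 places, and 2 windows of RMRP occurred at 2 places. With windows of 100 nt it was 48.0% in RN7SK, 25.5% in RN7SL1 and 17.9% in RN7SL2. Reads were sequenced from both ends of RNase-trimmed fragments, and the length left after trimming is not given in the sources used here. RN7SL3, which has no listed peak, had 62.0% of its 50-nt windows at 1 place.

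The 3 RNAs without exact copies at 50 nt held 2410 reads, 51.0% of the reads of the set and 6.03% of all reads in peaks (5.80 to 6.27). The other 2317 reads lay on RN7SK, RN7SL1 and RN7SL2. GENCODE names 293 genes as 7SK copies (RN7SKP) and 677 as 7SL copies (RN7SL with the suffix P). No peak was named after any of them, nor after the named copies of RMRP (1) and RPPH1 (2). The lookup was by gene symbol, and positions of the copies were not compared. A peak on a copy listed under another name would be missed, so this is not a result about where reads were placed. The methods do not say what was done with reads that match several places, so the values of RN7SK and of the SRP RNAs carry an uncertainty that the counting intervals do not cover.

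**Figure D4:**
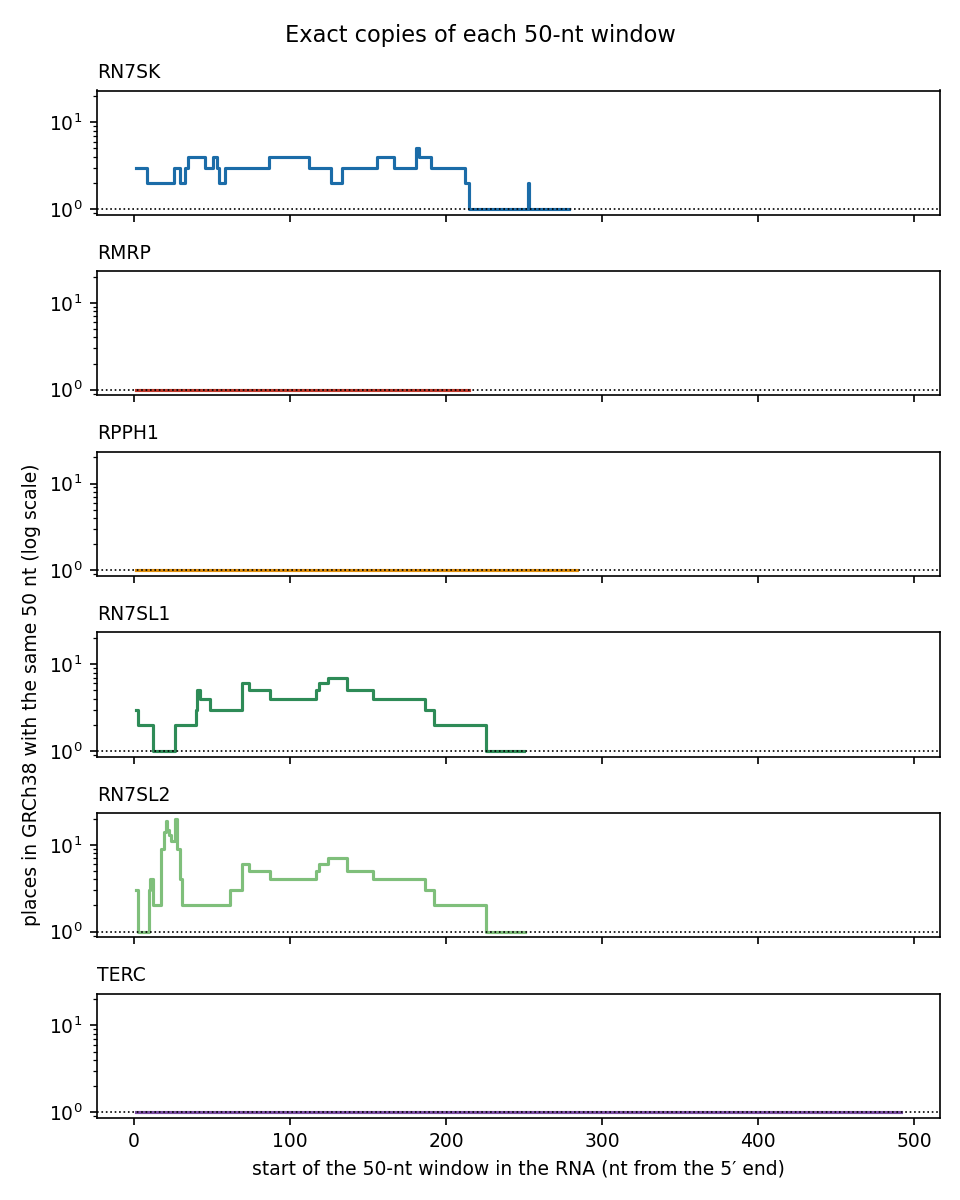
Number of places in GRCh38 (log axis) that hold the same 50 nt as each window of the 6 RNAs, by the start of the window in the RNA, with the dotted line at 1 place. RMRP, RPPH1 and TERC stay at 1 throughout, RN7SK falls to 1 from position 215 onward with 1 exception, and RN7SL1 and RN7SL2 reach 1 near their ends.

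The RNAs also shared features of sequence and position that the rule of choice did not use. The chosen types are those of structured RNAs, so strong predicted folding is not independent of the choice. RN7SL1 and RN7SL2 are nearly identical and so are not separate cases. Other small RNAs of the list were not compared. GC content ranged from 58.2% (RN7SK) to 66.7% (TERC), above the upper quartile of 52.1% over 4590 GENCODE long noncoding RNAs of 264 to 541 nt in all 6. The minimum free energy predicted by RNAfold ranged from -0.33 kcal per mol and nt in RN7SK to -0.49 in RPPH1, and in all 6 it was below the lower quartile of those transcripts (-0.32, median -0.28). RN7SK had the lowest GC content and the weakest predicted energy per nt of the 6. The predicted share of paired bases was lowest in RMRP (59.1%), with 60.4% in RN7SK. RN7SK had the highest peak by reads per bin but not by total reads, and a link of folding to reads was not tested. The prediction rests on sequence alone, and GC content itself lowers the energy. Each gene has 1 exon in GENCODE and 1 peak in the list, and the nearest other peak was between 26.6 kb (TPM2, beside RMRP) and 3491.4 kb away (DST, from RN7SK). The strand in the list was that of the gene model for all 6, and strand was not measured from reads.

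The proteins of the same machines were looked up as mRNAs, from a list of 35 genes. The list held 7 genes of the 7SK particle (such as LARP7, HEXIM1 and CDK9), 11 of RNase P and MRP (such as POP1 and RPP30), 8 of SRP and its receptor (such as SRP54), 8 of telomerase (such as TERT and DKC1) and SSB, the La protein that binds RNA polymerase III transcripts. None of the 35 genes carried a peak, where 3.11% of 20020 protein-coding genes of GENCODE did. A count of 0 among 35 is close to that background, so it is not a result about these genes.

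Other small structured RNAs were looked up in the same way. RN7SK was the only peak of snRNA type. The spliceosomal snRNAs, at the core of the machine in which PQBP1 acts, had 0 peaks over 48 genes named without a pseudogene suffix. The U7 snRNA (1 gene), the Y RNAs (3 genes), the vault RNAs (4 genes) and BCYRN1 likewise had 0 peaks. Of 506 small noncoding genes of GENCODE with a symbol of their own and no pseudogene suffix, these included and the members left out, 14 carried a peak (2.77%), so these counts of 0 are near the background and are not a result about these RNAs. The list begins at 6 reads per bin, so this says that no bin of these genes passed the authors' limits, and how much of each RNA was present was not measured here.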

How the data were processed

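SpyCLIP-seq of HEY cells gave 1 Input and 1 IP library, grouped by their titles. The authors used Trimmomatic for trimming, discarded ribosomal RNA reads, aligned with TopHat (TopHat2 version 2.0.13 in the submitters' processing notes), and used Piranha to find peaks and HOMER for their annotation. The deposited coverage signal of each peak was read as mean reads per bin of 200 nt, since its product with the number of bins was whole (within 0.01) in all 1489 peaks. The p-value per peak was used as deposited by the authors. Total depth is unknown, and 39952 reads lay in peaks. The methods name hg38, but the listed positions are of another build and were not converted.

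Members and gene lists were chosen with earlier results of these data known. Named were the 6 members, their neighbours by rank, the 3 highest other noncoding RNAs, and genes of the fixed lists with a peak. HSP90AA1, MALAT1, RPS29, TPM2 and DST were added after their values were seen. With 1 library a group there was no test. Intervals are 95% (exact Poisson, exact conditional binomial and Wilson, scipy 1.17.1). Coverage of the Poisson and binomial ones was checked on counts simulated from the Poisson model, which cannot show whether that model holds here. The intervals cover counting error only, since PCR duplicates cannot be recognised without molecular identifiers. Whether both ends of a fragment were counted as separate reads is not known. Either could make the intervals too narrow. Lengths came from RefSeq, sequences from GENCODE release 44. Alignment used Biopython 1.88 and folding RNAfold 2.7.2. Alternatives were total reads, RNA length, p-value limits of 0.001 and 1e-05, and restricted sets of peaks.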

Additional observations from a re-analysis of the deposited data

How the results depend on the processing

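The number of members among the 10 highest was 5 by reads per bin and in 5 of the 6 alternatives. It was 4 when reads were summed over a gene. Of 36 single ranks under these alternatives 20 did not move. RN7SK ranged from rank 1 to 5, RMRP from 2 to 4, RPPH1 from 3 to 6, RN7SL1 from 5 to 8, RN7SL2 from 7 to 13 and TERC from 24 to 63. The count of 35 protein genes with a peak was 0 also at a p-value limit of 0.001.

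The share of reads held by the 6 RNAs (11.8%) left its interval in each setting. It was 15.2% without NEAT1 and MALAT1, 15.6% at a p-value limit of 0.001, 20.4% at 1e-05, 27.1% without mRNA peaks, 12.6% from summed reads per bin and 8.76% without RMRP. The first 4 rises follow from the construction, as fewer reads remain in the denominator.

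RN7SK exceeded RMRP 1.69 times by reads per bin, but the order reversed by total reads (ratio 0.845) and per nt of RNA length (0.688). Per nt of RNA that the peak could hold, a scale chosen after seeing the data, the ratio was 1.14. Over RPPH1 the ratio was 1.18 by total reads, 1.21 per nt of length and 2.01 per nt held. Over RN7SL1 it was 1.59, 1.43 and 2.38. With the SRP RNA genes summed the ratio was 1.93 by reads per bin, and by total reads, a setting chosen after seeing the data, the order reversed (0.965, 1138 against 1179 reads). Both sums assume that no read was counted at both SRP RNA genes. Over RN7SL2 the ratio was 2.46 by total reads, 2.21 per nt of length and 3.67 per nt held. Over TERC it was 11.7 and 15.9, and unchanged at 23.5 per nt held. The peak of RN7SK has 1 bin and those of the others have 2, so its lead is smaller in total reads by construction. Both SRP RNA peaks have 2 bins, so the ratio of RN7SL1 to RN7SL2 (1.55) is the same by either read value by construction.

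No paired analysis was possible because there was only 1 library per group. No peak has a replicate. The smaller the peak, the wider its relative counting interval, which for TERC spans 39.3 to 59.2 reads per bin.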
